A study of Equus caballus with 45 samples.

Results

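The inflammasome genes described here were 7 genes, the sensors NLRP3, NLRP12, NLRC4 and AIM2, the adaptor PYCARD (ASC), the protease CASP1 and the pore protein GSDMD. They were taken by gene symbol from the equine count tables, which list 20881 genes, and 7 of 7 were found in the table of mesenchymal stromal cells (MSC) and in the table of joint cells. The list was chosen by measured values in part. NLRP12 and NLRC4 were included because they were higher in macrophages given STING-MSC conditioned medium than in macrophages given TLR-MSC conditioned medium. Values of that comparison are therefore given as a description, without a test. The other comparisons of macrophage media share libraries with it, so NLRP12 and NLRC4 were not tested there either.

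Inflammasomes are protein complexes that form in the cytosol when a sensor meets a danger or microbial signal. The sensor gathers PYCARD, PYCARD gathers caspase-1, and caspase-1 then cuts the precursors of IL-1β and IL-18 and opens GSDMD, whose freed part forms pores in the plasma membrane. NLRP3 answers potassium loss, crystals and extracellular ATP, NLRC4 answers bacterial flagellin and secretion system proteins handed over by NAIP, AIM2 binds DNA in the cytosol, and NLRP12 is a related sensor that has also been described as a brake on NF-κB signalling. In the joint, macrophages are the best known source of these complexes. The levels below are of mRNA and do not measure complex assembly.

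Bone marrow MSC of horses aged 3 to 4 years were left untreated or were activated for 2 h, either with poly I:C, which is a TLR3 agonist, or with the STING agonist 2′3′-cGAMP, at 10 μg/mL by the methods and 10 ng/mL by the labels, and were cultured for 24 h more. Donors PC, 99 and 92 gave 1 MSC library each in these conditions and under a label CpG, a treatment that the protocols do not describe. Conditioned medium from donors PC, ORC and AG1, collected from MSC that were resting (resting MSC-CM) or had received the TLR3 agonist (TLR-MSC-CM) or the STING agonist (STING-MSC-CM), was given for 24 h to synoviocytes, chondrocytes and blood monocyte-derived macrophages, all of which had received IL-1β and TNF-α (20 ng/mL by the methods, 10 ng/mL on macrophages by the labels), and the cells were washed and cultured for another 24 h. Each joint cell type also had 1 library with the cytokines only and 1 with no addition. By the methods each joint cell type came from 1 horse, so replicates were read as MSC donors. On that reading p-values measure the spread between media of different donors rather than between horses. Titles of libraries without MSC-CM also carry a code, PC for synoviocytes with cytokines only and ORC for the others. The labels alone therefore do not say that the codes name MSC donors. The sources do not say whether donors ORC and AG1 were the horses labelled 99 and 92.

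Between 23525704 and 54103873 reads were counted per library (median 31660884 over 45 libraries). Levels are given as CPM, the counts of a gene per 1000000 counts of its library. The detection floor was set at 3 counts, equal to 0.0554 to 0.128 CPM depending on depth, and covers counting error only. Gene lengths were not used here, so levels were compared between samples and not between genes. The cell types carried their defining markers in part. Summed macrophage markers were 13041 to 17383 CPM in the macrophage libraries, with PTPRC at 1085 to 1576 CPM, against 11.4 to 40.8 CPM in chondrocytes and 13.5 to 20.1 CPM in synoviocytes. Macrophage libraries also held 398 to 745 CPM of summed lymphocyte markers, with CD3E at 60.4 to 134 CPM, and 262 to 592 CPM of summed neutrophil markers. The neutrophil sum covers 5 of 12 listed genes and was mostly CSF3R, at 258 to 587 CPM. ELANE was 3.13 to 5.26 CPM, and MPO, LTF and S100A12 did not pass 1.20 CPM, so the sum does not show neutrophils. In chondrocytes COL2A1, the main collagen of cartilage, did not pass 0.368 CPM, and COL9A1 and COL11A2 were at the floor in all 11 libraries, while ACAN (aggrecan) was between 6.12 and 101 CPM. The passaged chondrocytes are therefore called by their label only.

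Libraries that stood apart touched the members. The 3 chondrocyte libraries given medium of donor ORC differed from the other 6 with medium, and the macrophage libraries of donor AG1 had the lowest NLRP12 in each medium. The TLR3 agonist library of MSC donor 92 had GBP5 and ZBP1 near their untreated levels, unlike those of the other donors. Fold changes of members that rest on these libraries are also given without them, and the pathway genes were refitted without them between cell types only.

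All 7 genes had their highest median in macrophages. NLRP3 was between 47.0 and 71.9 CPM in the 11 macrophage libraries (median 65.0), between 0.595 and 10.6 CPM in chondrocytes (median 6.57), at or below 0.641 CPM in MSC and at or below 0.189 CPM in synoviocytes, where the counts were 0 to 6 a library. The macrophage range stood apart from all others, and the chondrocyte range touched that of MSC through 1 library, at 0.595 CPM, with medium of donor ORC. NLRP12 was between 9.88 and 34.3 CPM in macrophages. Elsewhere it gave 1 count in 1 synoviocyte library and 0 in the chondrocyte and MSC libraries, so that at the floor it could be up to 0.122 CPM there and go unseen. NLRC4 was between 18.9 and 56.3 CPM in macrophages, at or below 0.521 CPM in chondrocytes, at or below 0.145 CPM in synoviocytes and at or below 0.109 CPM in MSC. AIM2 was between 1.73 and 9.39 CPM in macrophages, up to 1.09 CPM in MSC and 0 in every chondrocyte and synoviocyte library. The 4 sensors thus had 1 cell type with a clear level, apart from NLRP3 in chondrocytes.

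The shared downstream parts were split. CASP1 was between 9.31 and 19.2 CPM in macrophages and no higher than 8 counts, or 0.197 CPM, in any other library. PYCARD and GSDMD were above the floor in all 45 libraries. PYCARD was between 26.2 and 52.6 CPM in macrophages, 6.90 and 39.0 CPM in MSC, 16.4 and 24.1 CPM in synoviocytes and 5.54 and 20.2 CPM in chondrocytes. GSDMD was between 152 and 233 CPM in macrophages, 39.1 and 138 CPM in MSC, 10.8 and 25.6 CPM in chondrocytes and 9.19 and 12.6 CPM in synoviocytes. For GSDMD the order was macrophages, MSC, chondrocytes, synoviocytes, and the lower neighbours, chondrocytes and synoviocytes, overlapped. For PYCARD the ranges of all neighbours in the order overlapped. MSC and joint cells come from separate tables and were not tested against each other. In bulk libraries, fewer cells that express a gene and less RNA of it per cell cannot be told apart.

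**Figure D1:**
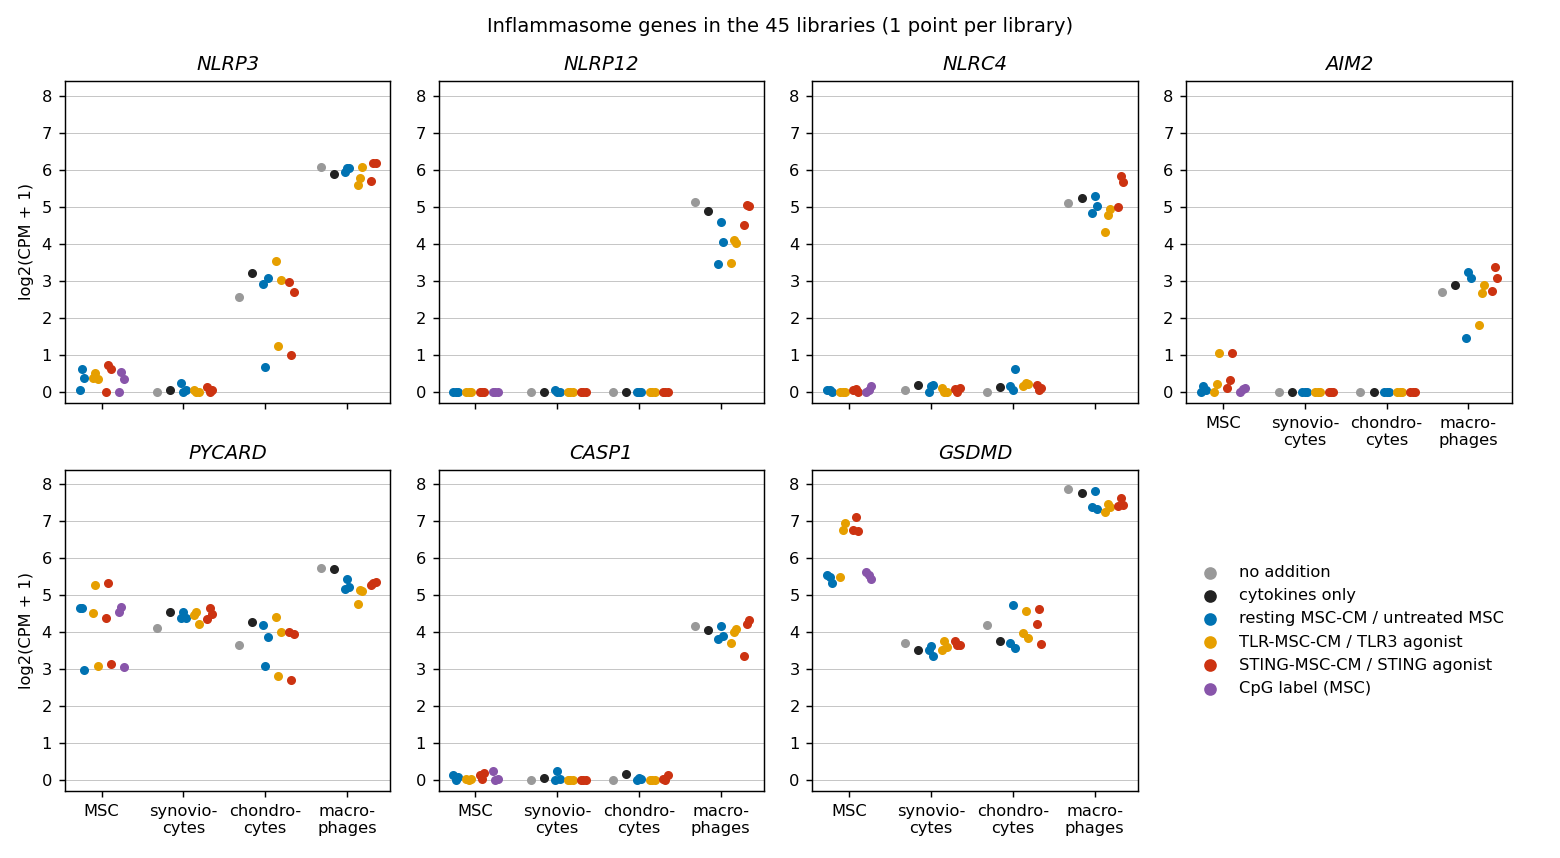
Levels of the 7 inflammasome genes on a log2(CPM + 1) scale (vertical axis) in MSC, synoviocytes, chondrocytes and macrophages (horizontal axis), 1 point per library and 1 colour per condition. NLRP12, NLRC4, AIM2 and CASP1 sit at or near 0 outside macrophages, except AIM2 in MSC of donor PC with the agonists (up to 1.09 CPM), and PYCARD and GSDMD are present in all 45 libraries.

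Cell types were compared with resting MSC-CM (n = 3 libraries each, quasi-likelihood test of edgeR, adjusted over 15599 genes by the Benjamini-Hochberg method). 7 of 7 members were called higher in macrophages than in synoviocytes and 7 of 7 higher than in chondrocytes, where 36.6% of all genes tested were called higher in each comparison. Nothing is read from that count, since NLRP12, NLRC4, AIM2 and CASP1 entered the fit mainly through their macrophage counts and NLRP12 and NLRC4 were picked from macrophage values. Groups did not overlap for any member, as for 76.6% and 73.7% of all genes. NLRP3 was 63.7 ± 2.86 CPM in macrophages (SD, n = 3), 4.85 ± 3.71 CPM in chondrocytes and 0.0746 ± 0.101 CPM in synoviocytes. This was a log2 fold change of 3.68 over chondrocytes (SE 0.566, edgeR adjusted p = 0.000163) and 9.55 over synoviocytes (SE 0.915). The latter rests on 6, 0 and 1 counts in the synoviocyte libraries and ran from 9.02 to 11.51 over the alternatives. Those counts are under the filter of 10 in total, so NLRP3 entered through the other cell types. No p is given for it over synoviocytes. NLRP12 was at least 163-fold higher than in chondrocytes and at least 157-fold higher than in synoviocytes, both against the group floor. For AIM2 the bounds were 59.7-fold and 57.5-fold. AIM2 was 0 in both lower groups and entered the fit only through macrophages, so no p is given for it. NLRC4 had log2 fold changes of 7.13 (SE 0.493) over chondrocytes and 8.57 (SE 0.567) over synoviocytes, on few counts in the lower group.

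CASP1 was at least 149-fold higher in macrophages than in chondrocytes. Its log2 fold change over synoviocytes was 7.64 (SE 0.499) and ran from 7.04 to 9.45 over the alternatives. That value rests on 0, 5 and 1 counts in the synoviocyte libraries. No p is given for CASP1, since it entered the fit mainly through its macrophage counts. GSDMD was 185 CPM on average in macrophages, with a log2 fold change of 3.50 over chondrocytes (SE 0.310) and 4.13 over synoviocytes (SE 0.320, edgeR adjusted p = 7.55e-07). PYCARD had the smallest difference of the 7, with log2 fold changes of 1.55 (SE 0.236, edgeR adjusted p = 0.000148) and 0.85 (SE 0.231, edgeR adjusted p = 0.00683). Under the alternatives tried, its adjusted p against synoviocytes ran from 4.85e-05 to 0.026. The calls of PYCARD and GSDMD, and that of NLRP3 over chondrocytes, held without the chondrocyte library of donor ORC and the macrophage library of donor AG1. This alternative was chosen after the data were seen. NLRP3 was then 3.24 and GSDMD 4.08 above chondrocytes on the log2 scale. The calls of NLRP12, NLRC4, AIM2 and CASP1, and that of NLRP3 over synoviocytes, are not read, for the reasons given above.

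Between chondrocytes and synoviocytes 1 member, NLRP3, was called, and 18.1% of all genes were. NLRP12, AIM2 and CASP1 were in this fit only through their macrophage counts, so the member count is not read against that share. NLRP3 was higher in chondrocytes by 5.87 on the log2 scale (SE 1.02, 5.34 to 7.83 over the alternatives, on the same few synoviocyte counts). It was higher by 6.36 without the chondrocyte library of donor ORC and the macrophage library of donor AG1. No p is given for NLRP3 here, since it passed the filter through macrophage and chondrocyte counts. PYCARD was lower in chondrocytes, at 12.8 against 20.7 CPM, with no overlap of the groups (37.0% of genes did not overlap), and did not pass the threshold (log2 fold change −0.70, SE 0.234, edgeR adjusted p = 0.0645). It passed with DESeq2 (adjusted p = 0.0248) and in fits without the chondrocyte library of donor ORC or of donor AG1. With donor ORC's chondrocyte library left out, the log2 fold change was −0.44. Over all alternatives its adjusted p ran from 0.0189 to 0.166. The macrophage marker sum was 14.9 to 16.9 CPM in these chondrocytes, and CD68 alone was 9.42 to 38.3 CPM over the 11 chondrocyte libraries. In all 11, CD163, MRC1, TYROBP, SPI1, AIF1, C1QB and C1QC were at the floor.

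In macrophages NLRP12 was highest in the single libraries without MSC-CM and with STING-MSC-CM. With STING-MSC-CM it was 21.7 CPM for donor AG1, 31.9 CPM for ORC and 31.2 CPM for PC. With TLR-MSC-CM the values were 10.1, 16.2 and 15.3 CPM in the same order, and with resting MSC-CM 9.88, 23.2 and 15.4 CPM. All STING-MSC-CM libraries lay above all TLR-MSC-CM libraries, and the resting range overlapped both. The library with cytokines only was at 28.7 CPM and that with no addition at 34.3 CPM. By group mean the order was no addition, cytokines only, STING-MSC-CM (28.3 ± 5.68 CPM, SD, n = 3), resting MSC-CM (16.2 ± 6.68 CPM) and TLR-MSC-CM (13.9 ± 3.27 CPM). Cytokines only fell within the STING-MSC-CM range, the resting and TLR-MSC-CM ranges overlapped, and all 6 libraries of the latter media were below the cytokines-only library.

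Within each donor NLRP12 was 2.15-fold (AG1), 1.97-fold (ORC) and 2.04-fold (PC) higher with STING-MSC-CM than with TLR-MSC-CM. The fitted log2 difference, which the choice of members used, was 1.06 (SE 0.307), and 0.87 to 1.24 over the 16 alternatives. Against resting MSC-CM it was 0.80 (SE 0.306), higher in 3 of 3 donors, with a range of 0.54 to 1.15 over alternatives. The lowest value came without the resting library of donor AG1.

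NLRC4, the sensor served by NAIP, was 30.7, 56.3 and 50.2 CPM with STING-MSC-CM of donors AG1, ORC and PC. With TLR-MSC-CM it was 18.9, 26.4 and 29.5 CPM, and with resting MSC-CM 27.4, 38.3 and 31.4 CPM. The STING-MSC-CM and TLR-MSC-CM ranges did not overlap, and the resting range overlapped both. Cytokines only gave 37.0 CPM and no addition 33.7 CPM, both inside the STING-MSC-CM range and the resting range. The donor folds of STING-MSC-CM over TLR-MSC-CM were 1.62, 2.13 and 1.70, and the fitted log2 difference was 0.91 (SE 0.249, 0.72 to 1.15 over alternatives). Without donor AG1 it was 0.95, and that of NLRP12 was 1.02. NAIP itself was at 31.2, 63.6 and 65.4 CPM with STING-MSC-CM and 37.1, 34.8 and 54.0 CPM with TLR-MSC-CM, so these groups overlapped.

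AIM2 was lower with medium of donor AG1 than of either other donor in each of the 3 media. It was 5.58, 9.39 and 7.43 CPM with STING-MSC-CM of donors AG1, ORC and PC. The values were 2.48, 5.42 and 6.34 CPM with TLR-MSC-CM and 1.73, 8.50 and 7.49 CPM with resting MSC-CM, and the 3 media overlapped. Cytokines only (6.38 CPM) and no addition (5.44 CPM) fell within the same range. NLRP3 was 50.8, 71.6 and 71.9 CPM with STING-MSC-CM, 47.0, 54.3 and 66.3 CPM with TLR-MSC-CM and 60.5, 65.8 and 65.0 CPM with resting MSC-CM, again with overlap. The single libraries were at 58.1 CPM with cytokines only and 66.8 CPM with no addition.

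PYCARD was the adaptor whose level with TLR-MSC-CM lay below both other media. It was 26.2, 34.5 and 33.9 CPM with TLR-MSC-CM of donors AG1, ORC and PC. With resting MSC-CM it was 35.2, 42.8 and 36.2 CPM, and with STING-MSC-CM 38.1, 39.4 and 39.9 CPM. All 3 TLR-MSC-CM libraries were below all libraries of the other media, and those overlapped each other. Against resting MSC-CM 1.43% of all genes did not overlap in that direction. The libraries without MSC-CM were higher than any with it, at 51.1 CPM with cytokines only and 52.6 CPM with no addition, which are 1 library each. TLR-MSC-CM against resting MSC-CM gave a log2 fold change of −0.32 (SE 0.139, lower in 3 of 3 donors, unadjusted p = 0.043 and adjusted p = 0.999 with edgeR), so PYCARD was not called. With the donor as a block the unadjusted p was 0.00484 and the adjusted p 0.775. Over the alternatives the log2 fold change ran from −0.42 to −0.19 and the adjusted p from 0.775 to 1. STING-MSC-CM against TLR-MSC-CM gave 0.35 (SE 0.139), described only, and 0.23 without donor AG1.

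CASP1 and GSDMD overlapped between the 3 media. CASP1 was 9.31, 17.8 and 19.2 CPM with STING-MSC-CM of donors AG1, ORC and PC, 12.1, 15.0 and 16.1 CPM with TLR-MSC-CM, and 13.0, 17.1 and 14.1 CPM with resting MSC-CM. GSDMD was between 152 and 227 CPM with the media. It was 217 CPM with cytokines only and 233 CPM with no addition, and 1 library with medium, resting MSC-CM of donor ORC, lay between these values.

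**Figure D2:**
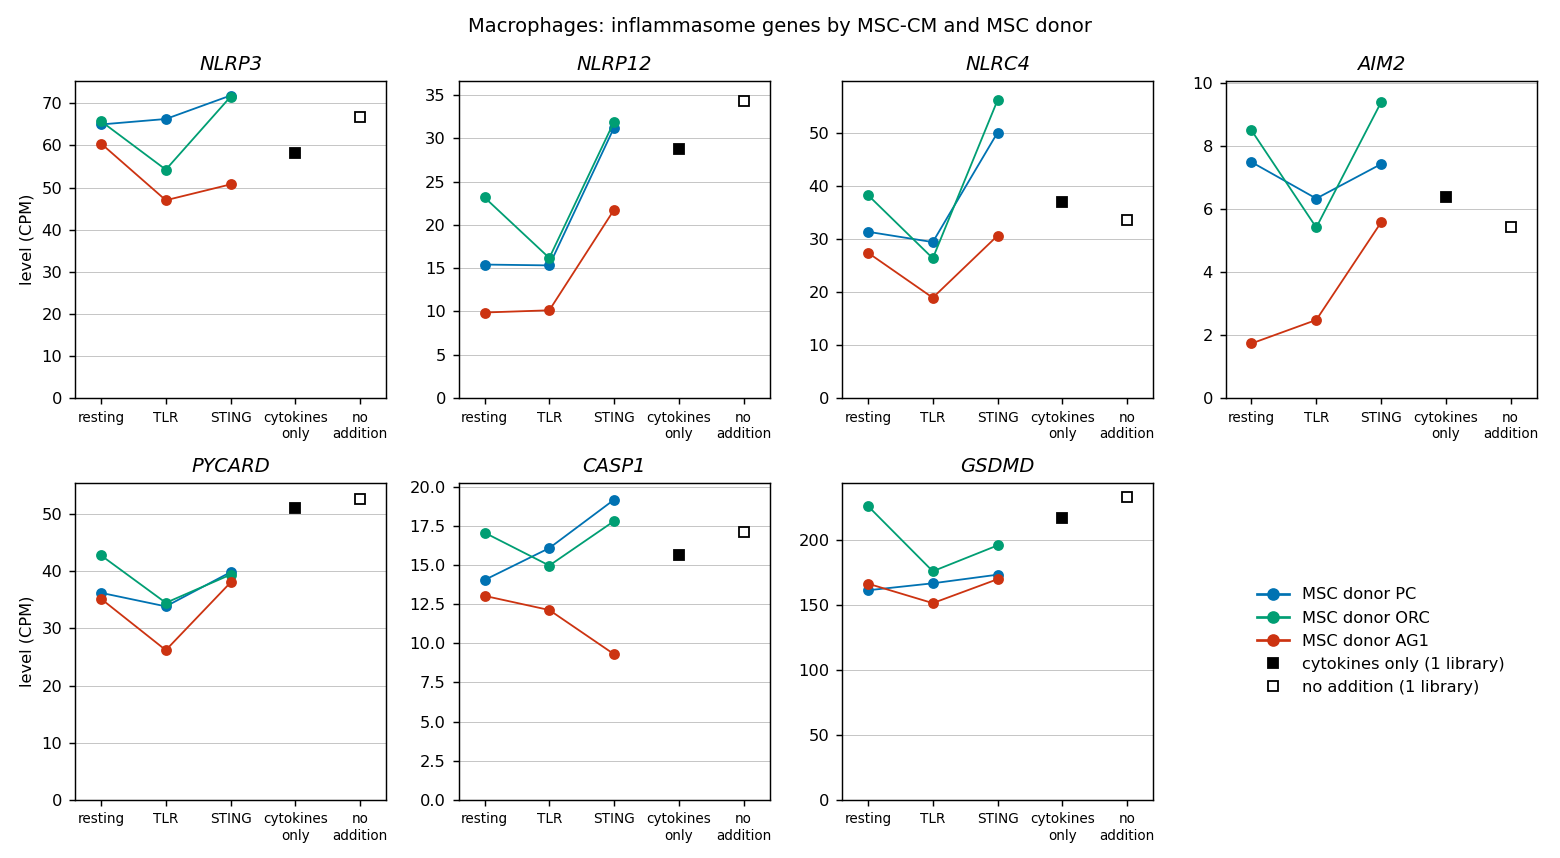
Levels (CPM, vertical axis) of the 7 genes in macrophages by medium (horizontal axis), with lines joining the 3 media of each MSC donor and squares for the single libraries without MSC-CM. NLRP12 and NLRC4 with STING-MSC-CM lie above TLR-MSC-CM in 3 of 3 donors, and PYCARD is highest in the single libraries at 51.1 and 52.6 CPM.

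Over the 7 members, STING-MSC-CM minus TLR-MSC-CM was positive in 7 of 7, with a median log2 difference of 0.35, beside a median of −0.02 and 47.0% positive over the 15052 genes of the fit. Groups did not overlap for 3 of 7 members (NLRP12, NLRC4 and PYCARD), where 4.74% of all genes did not overlap in that direction. This direction was part of how the members were chosen. TLR-MSC-CM minus resting MSC-CM was negative in 7 of 7 members, from −0.43 (NLRC4) to −0.08 (CASP1, median −0.26), beside a median of 0.01 and 51.4% positive over all genes, and the 2 comparisons share the TLR-MSC-CM libraries. STING-MSC-CM minus resting MSC-CM was positive in 6 of 7, from −0.05 (GSDMD) to 0.80 (NLRP12, median 0.06), beside a median of −0.01 and 48.5% positive. NLRP12 and NLRC4 stand in these counts as a description. With edgeR 0 of 15052 genes were called in each of these comparisons (0%). Under a donor block the calls were 336 between the activated media and 80 for STING-MSC-CM over resting, and no member tested was among the 80. At an unadjusted p under 0.05, 2.13% of genes passed for TLR-MSC-CM and 4.76% for STING-MSC-CM against resting MSC-CM. Of the 5 members tested there, 0 were called with edgeR or DESeq2, and 1 (PYCARD, with TLR-MSC-CM) had an unadjusted p under 0.05. Marker sums overlapped between the media. Monocyte markers summed to 817 to 2498 CPM with STING-MSC-CM, 377 to 1464 CPM with TLR-MSC-CM and 628 to 1647 CPM with resting MSC-CM. Macrophage markers (17 of 17 in the table above the floor) summed to 14802 to 17383, 13041 to 15915 and 13850 to 16087 CPM, and neutrophil markers to 395 to 572, 437 to 582 and 283 to 592 CPM, in the same order. Lymphocyte markers were 398 to 457, 432 to 745 and 418 to 478 CPM. Their part in the levels of the members was not tested.

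Chondrocytes expressed NLRP3, PYCARD and GSDMD, and these levels split by MSC donor. NLRP3 was 6.57, 0.595 and 7.40 CPM with resting MSC-CM of donors AG1, ORC and PC. It was 10.6, 1.35 and 7.06 CPM with TLR-MSC-CM and 6.82, 1.00 and 5.50 CPM with STING-MSC-CM. The 3 libraries of donor ORC, at 0.595 to 1.35 CPM, lay below the other 6, at 5.50 to 10.6 CPM, and below cytokines only (8.22 CPM) and no addition (4.86 CPM). PYCARD showed the same split, with 5.54 to 7.46 CPM for donor ORC and 13.6 to 20.2 CPM for the others. GSDMD went the other way, with 23.0 to 25.6 CPM for donor ORC and 10.8 to 17.7 CPM for the others. Cytokines only was at 12.6 CPM and no addition at 17.2 CPM for GSDMD, and at 18.4 and 11.5 CPM for PYCARD.

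The ORC libraries differed in cytokines of the IL-1 family as well. IL1A was 0 in all 3, against 1.47 to 13.7 CPM in the other 6 with medium and 10.9 CPM with cytokines only. IL1B was at most 0.260 CPM, against 3.76 CPM or more, with 14.4 CPM for cytokines only and 0.0772 CPM for no addition. IL36G, another such cytokine, was 3.10 to 9.44 CPM against 37.6 to 99.5 CPM, with 89.1 CPM for cytokines only and 0.695 CPM for no addition. IL18, which gave 1 to 10 counts in the 11 libraries, showed no such split. Summed chondrocyte markers were 489 to 624 CPM in the ORC libraries, 160 to 246 CPM in the other 6 and 768 CPM with no addition. In these 3 cytokines the ORC libraries were thus nearer to the library without cytokines. What set them apart cannot be told from the labels, which give them the same cytokines.

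**Figure D3:**
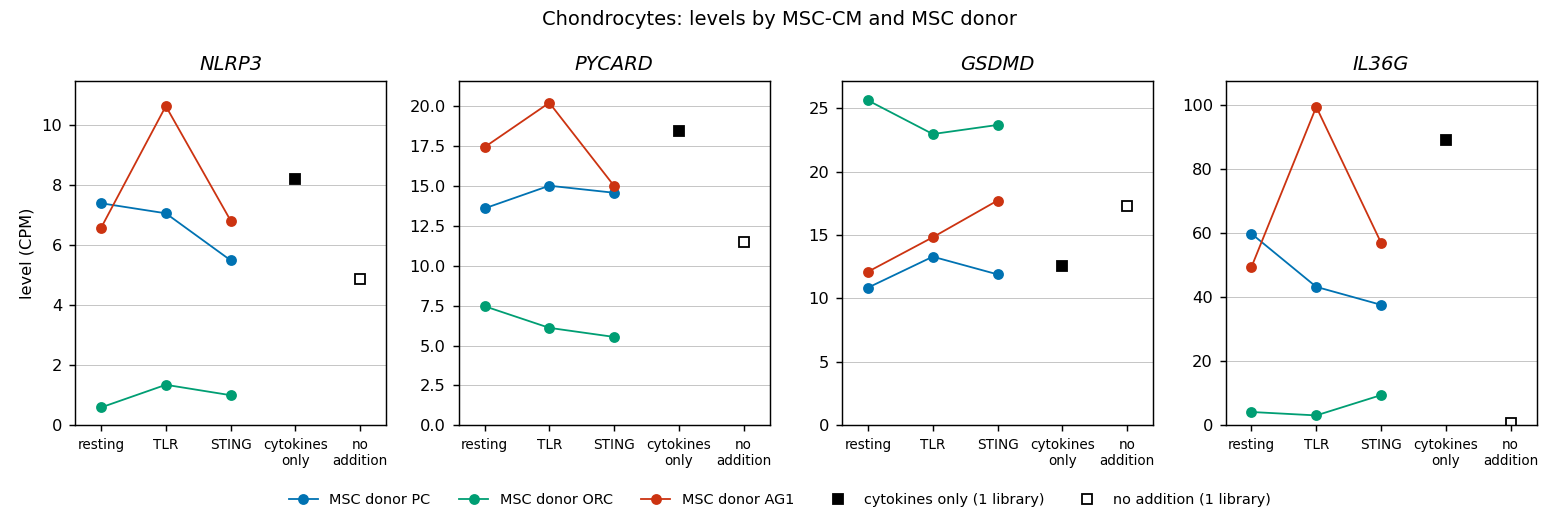
Levels (CPM, vertical axis) of NLRP3, PYCARD, GSDMD and IL36G in chondrocytes by medium (horizontal axis), with lines joining the media of each MSC donor and squares for the single libraries without MSC-CM. Libraries of donor ORC are lowest in NLRP3, PYCARD and IL36G among those with medium and highest in GSDMD.

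With edgeR 0 of the 4 members tested (NLRP3, NLRC4, PYCARD and GSDMD) and 0 of 14304 genes (0%) were called between media in chondrocytes, DESeq2 called no member, and an unadjusted p under 0.05 was found in 0.559% of genes for TLR-MSC-CM and 0.909% for STING-MSC-CM, each against resting MSC-CM, and in 0.811% between the activated media. NLRP3 was lower with STING-MSC-CM than with TLR-MSC-CM in 3 of 3 donors, by a log2 fold change of −0.54 (unadjusted p = 0.573 and adjusted p = 1 with edgeR). With the donor as a block it was −0.53 with an unadjusted p of 0.0127 and an adjusted p of 0.996, and without the libraries of donor ORC it was −0.54 with an unadjusted p of 0.0194 and an adjusted p of 1 (edgeR). NLRC4 gave 0 to 16 counts and CASP1 0 to 5 counts a library, too few for a fold change.

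Synoviocytes, fibroblast-like cells of the joint lining, had PYCARD and GSDMD at steady levels. PYCARD was 19.7, 22.5 and 19.9 CPM with resting MSC-CM of donors AG1, ORC and PC, 21.3, 22.3 and 17.8 CPM with TLR-MSC-CM and 19.4, 24.1 and 21.4 CPM with STING-MSC-CM. It was 22.3 CPM with cytokines only and 16.4 CPM with no addition, the lowest of the 11 libraries. GSDMD was 10.4, 11.5 and 9.19 CPM with resting MSC-CM, 10.5, 12.6 and 11.1 CPM with TLR-MSC-CM and 12.6, 11.6 and 11.7 CPM with STING-MSC-CM. With cytokines only it was 10.5 CPM and with no addition 12.1 CPM. The STING-MSC-CM and resting groups of GSDMD did not overlap, as for 8.62% of genes in that direction, and the log2 fold change was 0.20 (higher in 3 of 3 donors, unadjusted p = 0.0718 with edgeR). With edgeR 0 of the same 4 members and 0 of 14584 genes (0%) were called in any comparison of media, 0 members had an unadjusted p under 0.05 and DESeq2 called no member. At that unadjusted p 10.0%, 7.60% and 2.02% of genes passed in the comparisons of TLR-MSC-CM with resting, STING-MSC-CM with resting and STING-MSC-CM with TLR-MSC-CM.

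In MSC the pore gene GSDMD differed most with the agonists among members above 1 CPM. Untreated MSC of donors 92, 99 and PC were at 46.0, 43.8 and 39.1 CPM. After the TLR3 agonist they were at 43.8, 108 and 122 CPM, after the STING agonist at 108, 138 and 105 CPM, and under the CpG label at 48.6, 45.4 and 42.4 CPM. The STING agonist libraries lay above all untreated and CpG libraries. The TLR3 agonist libraries overlapped both groups, through donor 92. Means were 42.9 ± 3.52 CPM untreated, 91.3 ± 41.8 CPM with the TLR3 agonist and 117 ± 18.1 CPM with the STING agonist (SD, n = 3 each).

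GSDMD was not called in the fit over all 9 libraries. With the STING agonist the log2 fold change was 1.44 (SE 0.367, higher in 3 of 3 donors, unadjusted p = 0.00389 and adjusted p = 1 with edgeR), and 4.03% of the 14872 genes did not overlap in that direction. With the TLR3 agonist it was 1.16 (SE 0.365, higher in 2 of 3 donors, unadjusted p = 0.0121 and adjusted p = 1 with edgeR). No gene passed the adjusted threshold in either comparison (0%), and 2.10% and 1.15% of genes had an unadjusted p under 0.05. DESeq2, which called 93 and 48 genes, gave GSDMD adjusted p-values of 0.0683 and 0.814. Without the TLR3 agonist library of donor 92, GSDMD passed in both comparisons, with a log2 fold change of 1.42 (edgeR adjusted p = 0.0276) for the STING agonist and 1.48 (edgeR adjusted p = 0.033) for the TLR3 agonist. GSDMD itself was at 43.8 CPM in that library, against 46.0 CPM untreated in the same donor, and no other single omission gave a call. The omission thus depends on the outcome tested, and no support is read from it. In that library GBP5, an interferon-induced GTPase that promotes NLRP3 and AIM2 responses, was at 9.52 CPM, against 10.3 CPM untreated and 186 CPM with the STING agonist in the same donor. In donors 99 and PC it went from 23.4 and 16.9 CPM untreated to 242 and 486 CPM with the TLR3 agonist. ZBP1, a sensor of Z-form nucleic acid, was 0 in that library and 47.8 CPM in the STING agonist library of donor 92.

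AIM2 was near the floor in untreated MSC. Donors 92, 99 and PC had 0, 4 and 1 counts untreated, 0, 8 and 54 counts with the TLR3 agonist, 2, 10 and 37 counts with the STING agonist and 0, 2 and 3 counts under the CpG label. Only donor PC passed 1 CPM, at up to 1.09 CPM, and both group means stayed under 1 CPM, so no fold is given. PYCARD differed more between donors than between treatments. Donor PC was at 6.90 CPM untreated, 7.56 CPM with the TLR3 agonist and 7.77 CPM with the STING agonist. Donor 99 was at 24.1, 38.1 and 39.0 CPM and donor 92 at 24.2, 21.8 and 20.0 CPM. NLRP3 gave 0 to 25 counts, CASP1 0 to 8 and NLRC4 0 to 4 counts per MSC library, and NLRP12 gave 0 in 12 of 12. None of the 5 members tested for the STING agonist against the TLR3 agonist, and none of the 6 tested for the CpG label against untreated, was called with edgeR or DESeq2 or had an unadjusted p under 0.05, as for 0.242% and 0.305% of all genes.

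**Figure D4:**
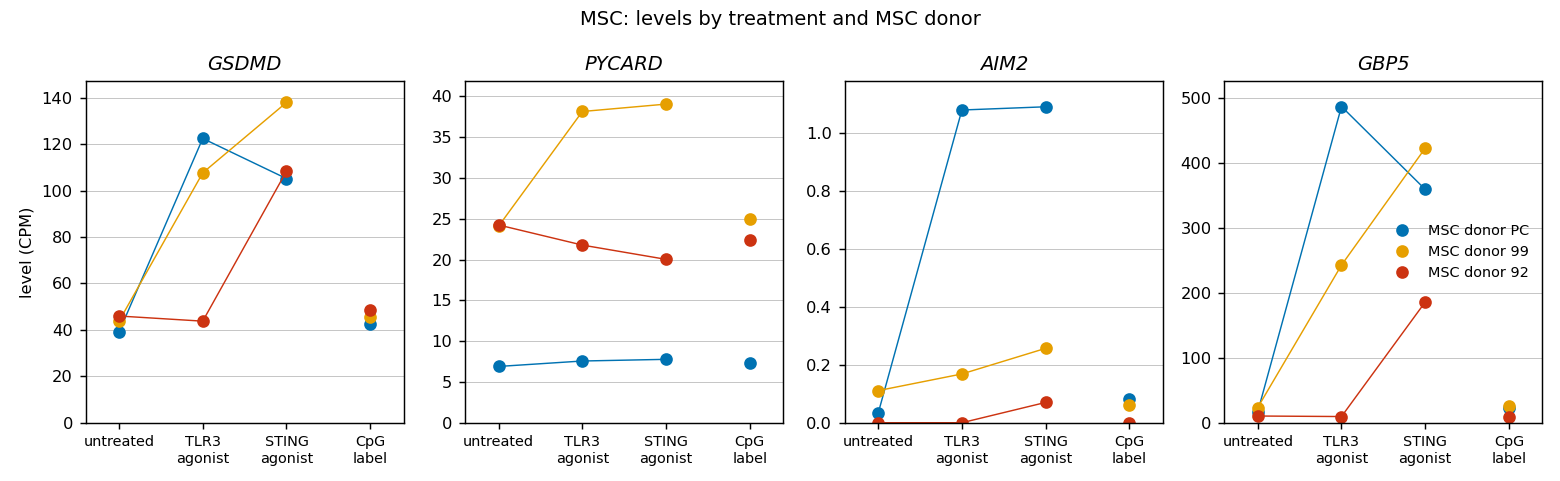
Levels (CPM, vertical axis) of GSDMD, PYCARD, AIM2 and GBP5 in MSC by treatment (horizontal axis), 1 colour per donor, with lines joining untreated, TLR3 agonist and STING agonist. The TLR3 agonist point of donor 92 stays at its untreated level in GSDMD (43.8 CPM) and GBP5 (9.52 CPM), while its STING agonist point is higher.

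Summed macrophage markers in MSC moved with the same treatments, at 12.8 to 17.4 CPM untreated, 11.2 CPM (donor 92), 117 CPM (99) and 139 CPM (PC) with the TLR3 agonist and 55.2 to 326 CPM with the STING agonist. CD68 alone reached 324 CPM. PTPRC stayed at or below 0.239 CPM, and CD163, AIF1, C1QB and C1QC were at the floor in all 12 MSC libraries.

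Of the other genes of the pathway, 78 were listed from general knowledge, with earlier results of these data known, and 63 were in both tables. Among the 58 tested with resting MSC-CM, 43 were higher and 6 lower in macrophages than in synoviocytes, and 45 were higher and 5 lower than in chondrocytes (edgeR, adjusted p under 0.05). Of all genes 36.6% were higher in each comparison, and 35.1% and 34.9% were lower. Among 11 other sensors, 8 were higher and 1 lower than in synoviocytes. NAIP was 40.9 CPM in macrophages against 0.0122 CPM in synoviocytes and 0 in chondrocytes. NLRP1, another sensor that forms inflammasomes, was 71.2 CPM against 0 in both. The lower one was NLRX1, a mitochondrial member of the sensor family, at 16.3 CPM against 39.2 and 53.5 CPM (log2 fold changes −1.29 and −1.72).

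Caspases and pores (10 tested) had 7 higher and 1 lower than in synoviocytes and 8 higher and 0 lower than in chondrocytes. CASP4, the caspase that binds bacterial lipopolysaccharide and can cut GSDMD without a sensor, was abundant in every joint cell type, in contrast to CASP1. It was 270 CPM in macrophages, 209 CPM in synoviocytes and 199 CPM in chondrocytes, and the difference passed the threshold against chondrocytes (log2 fold change 0.43, edgeR adjusted p = 0.0452) and not against synoviocytes (0.34, adjusted p = 0.1). Without the chondrocyte library of donor ORC and the macrophage library of donor AG1 it passed in both, at 0.46 and 0.51 (edgeR adjusted p = 0.00304 and 0.000802). GSDME, a pore protein opened by caspase-3, was 54.4 CPM in macrophages, 0.0734 CPM in synoviocytes and 0 in chondrocytes.

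Cytokine substrates and receptors (14 tested) had 10 higher and 2 lower in macrophages in both comparisons. IL1B was 301 CPM in macrophages, 5.10 CPM in chondrocytes and 0.182 CPM in synoviocytes. IL18 was 12.8, 0.0970 and 1.79 CPM in the same order. IL1RN, the receptor antagonist of IL-1, was 249 CPM in macrophages and 0 in both other types, and IL18BP, which binds IL-18, was 719 CPM against 5.71 and 5.36 CPM. The receptor IL1R1 was lower in macrophages, at 15.4 CPM against 52.2 CPM in chondrocytes and 47.8 CPM in synoviocytes.

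Licensing and regulatory genes (23 tested) had 18 higher and 2 lower than in synoviocytes and 20 higher and 2 lower than in chondrocytes. GBP5 was 1557 CPM in macrophages against 8.02 CPM in synoviocytes and 2.82 CPM in chondrocytes. NEK7, the kinase that NLRP3 needs to assemble, ran opposite to NLRP3, at 32.9 CPM in macrophages, 125 CPM in synoviocytes and 113 CPM in chondrocytes (log2 fold changes −1.95 and −1.79). Chondrocytes had 7 of the 58 genes higher and 11 lower than synoviocytes, where 8.31% and 9.84% of all genes were called. NINJ1, which ruptures the membrane after pore formation, was 84.8 against 39.4 CPM (log2 fold change 1.09, edgeR adjusted p = 0.000839), IL1B was higher by 4.79 (adjusted p = 0.0394) and IL18 was lower by a log2 fold change of −4.17 (adjusted p = 0.000371). Without the chondrocyte library of donor ORC and the macrophage library of donor AG1, 9 of the 58 genes were higher and 12 lower, and the log2 fold changes were 1.24 for NINJ1, 5.34 for IL1B and −4.30 for IL18, on few counts of IL18 in chondrocytes and of IL1B in synoviocytes.

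**Figure D5:**
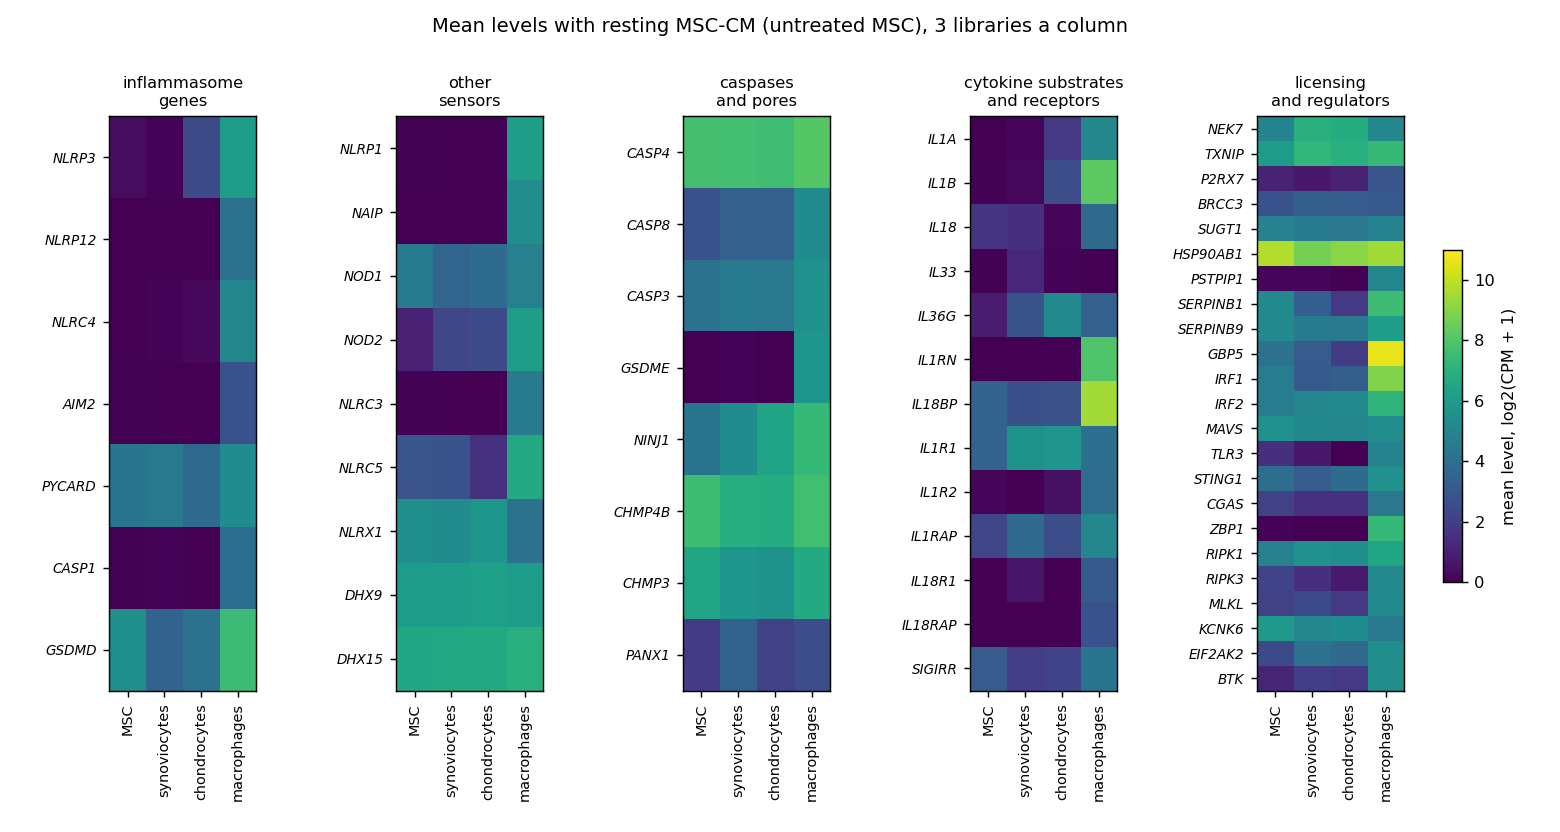
Mean levels, as log2(CPM + 1) on the colour scale, of the 7 genes and of the listed pathway genes shown, which reached 1 CPM in any column, in untreated MSC and in joint cells with resting MSC-CM (3 libraries a column). Most rows are brightest in macrophages, CASP4 is bright in every column, and NEK7, NLRX1 and IL1R1 are brighter in synoviocytes and chondrocytes than in macrophages.

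Between media or agonists, 0 of the listed genes were called with edgeR in any list. At an unadjusted edgeR p under 0.05, 12 of 51 listed genes were higher and 0 lower in MSC with the STING agonist. With the TLR3 agonist 8 were higher and 0 lower. Of all genes 2.10% and 1.15% passed. The lists were chosen with earlier results of these data known, so no response of the pathway is read from these counts. Small p-values with the STING agonist belonged to EIF2AK2, the kinase PKR, which was 4.61 CPM untreated and 34.8 CPM treated (log2 fold change 2.90, unadjusted p = 0.00238 with edgeR), and to ZBP1, which was 0.0930 and 86.3 CPM. Between STING-MSC-CM and TLR-MSC-CM in macrophages, the groups of 10 of 57 listed genes did not overlap, and these are named because of their values. With STING-MSC-CM 2 were higher, NINJ1 (217 against 164 CPM on average) and IRF2, and 8 were lower, namely NLRX1, CHMP4B, IL36G, IL1RN, IL18BP, IL18R1, SUGT1 and PSTPIP1. Of all genes 4.74% did not overlap in the higher direction and 8.09% in the lower. IL1RN was 114, 160 and 216 CPM with STING-MSC-CM of donors AG1, ORC and PC and 361, 299 and 293 CPM with TLR-MSC-CM. IL18BP was 634, 616 and 640 CPM against 858, 826 and 779 CPM, and IL18R1 was 4.98 ± 0.604 against 8.54 ± 2.14 CPM (SD, n = 3). This comparison shares its libraries with the choice of members, so no p is given. IL1B overlapped, with 140, 232 and 78.8 CPM against 125, 224 and 90.1 CPM.

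Whether a medium changed a member differently in 2 joint cell types was tested by interaction terms over 27 libraries and 16584 genes. None of the members tested passed the adjusted threshold with edgeR, and no gene did (0%). CASP1 had unadjusted edgeR p-values of 0.0402 with TLR-MSC-CM and 0.0355 with STING-MSC-CM for macrophages against synoviocytes, on 0 to 5 counts per synoviocyte library, and 3.99% and 4.38% of all genes had one under 0.05. For chondrocytes against synoviocytes CASP1 had one of 0.0463 with STING-MSC-CM, on few counts in both, where 1.74% of all genes had one under 0.05.

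Across the 11 macrophage libraries the members' levels were compared by Pearson correlations of log2(CPM + 1) without a test, over libraries that share donors and media. The libraries whose difference chose NLRP12 and NLRC4 are among these, so their correlation is partly built in. Correlations over all gene pairs were not computed, so the values of the members have no reference and no joint regulation is read from them. Among pairs of members, r was between 0.410 for NLRP3 with GSDMD and 0.880 for PYCARD with GSDMD. Among 11535 genes, the closest to NLRP12 were IRF2 (r = 0.985), C1S and GSAP. The closest to NLRC4 were CTSO (r = 0.945), MB21D2 and FAM234B, and the closest to NLRP3 were ARHGDIA (r = 0.923), GLIPR2 and LMO2. AIM2 was closest to SIGLEC1 (r = 0.988), OAS2 and C2, PYCARD to AIF1 (r = 0.968), TIMP2 and TAMM41, CASP1 to ACSL5 (r = 0.933), DLL1 and RFESD, and GSDMD to STX4 (r = 0.967), ACOT9 and ERP29. IRF2 itself was 167, 191 and 176 CPM with STING-MSC-CM of donors AG1, ORC and PC. It was 113, 140 and 144 CPM with TLR-MSC-CM and 118, 167 and 139 CPM with resting MSC-CM. Cytokines only gave 190 CPM and no addition 198 CPM. IRF2 was picked by its correlation with NLRP12 over these libraries, so a like order of groups follows from that choice.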

How the data were processed

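Total RNA of 12 MSC and 33 joint cell libraries was sequenced. The authors trimmed reads with Cutadapt 1.12, aligned them with STAR to EquCab3.0, counted them per gene with HTSeq 0.11.0 and kept protein coding genes. The deposited values are these counts, whole numbers without normalization. They came as 1 table of MSC and 1 of joint cells. Members were matched by symbol, and groups were taken from the labels.

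Counts were fitted in R 4.3.3 with edgeR 4.0.16 (TMM, quasi-likelihood test, a minimum total of 10 counts per gene in a fit, Benjamini-Hochberg over all genes, threshold 0.05). Each cell type was fitted over 9 libraries without a donor term, and CpG over 12 MSC libraries. DESeq2 1.42.0 was an alternative, as were no filter, a donor block, leaving out libraries, a fit over 27 libraries and the study's thresholds (unadjusted p up to 0.05, absolute log2 fold change from 2). Levels are plain CPM. The 45 libraries held 23525704 to 54103873 counts each, so the precision of a difference was set by the spread between donors except near the floor of 3 counts. Scripts were tested on simulated data. No pair of libraries of the same group agreed within sampling noise, and pairs across groups were not compared.

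Fold changes with errors are given for members with a mean of at least 1 CPM over the fit and an absolute log2 fold change of at least 1 or an unadjusted p under 0.05. Members at under 1 CPM in both groups were left out, a limit added after the values were seen, and log2 fold changes of other members that the text singles out, and of pathway genes beyond the 3 smallest p-values, were chosen after their values were seen. The members and gene lists were chosen with earlier results of these data known.

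MSC donors, as the codes were read, pair the libraries by label. Deviations of libraries of the same donor from their condition means correlated with a median of 0.821 for MSC (−0.468 between donors), 0.676 for chondrocytes (−0.656), 0.440 for macrophages (−0.233) and 0.0667 for synoviocytes (−0.0222). Gene sequences, lengths and coordinates were not used here, and 1 listed pathway gene is counted but not reported by name.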

Additional observations from a re-analysis of the deposited data

Results flagged for a closer look

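With STING-MSC-CM against TLR-MSC-CM, NLRP3 and PYCARD differed in opposite directions in chondrocytes and macrophages in every donor, in part by little. The log2 fold change of NLRP3 was −0.54 in chondrocytes (lower in 3 of 3 donors) and 0.25 in macrophages (higher in 3 of 3 donors). That of PYCARD was −0.27 in chondrocytes and 0.35 in macrophages, again in 3 of 3 donors each. PYCARD in chondrocytes was 14.6 against 15.0 CPM for donor PC and 5.54 against 6.11 CPM for ORC. For NLRP3 in macrophages of donor AG1 the values were 50.8 against 47.0 CPM. The share of all genes with such opposite signs was not counted. The difference between the cell types was not tested for this pair of media, and the macrophage side belongs to the comparison that chose the members. In chondrocytes NLRP3 of donor ORC was near 1 CPM in these media.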

How the results depend on the processing

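The calls of GSDMD in macrophages over synoviocytes and over chondrocytes, and of NLRP3 over chondrocytes, held under the alternatives run. Those of PYCARD held except under the study's thresholds, where 6 of 7 members pass (32.4% and 32.0% of all genes do). Nothing is read from the calls of NLRP12, NLRC4, AIM2 and CASP1. These entered the fits mainly through their macrophage counts or were picked from macrophage values. The calls of NLRP3 over synoviocytes are not read either, as its synoviocyte counts alone were under the filter. Elsewhere the number of members called changed as follows. In MSC the TLR3 agonist and STING agonist comparisons had 0 members called and 0 to 1 when a library was left out, the 1 (GSDMD) without the TLR3 agonist library of donor 92. That call is not read, since GSDMD itself stayed near its untreated level in that library. Chondrocytes against synoviocytes had 1 member called, 2 with DESeq2, 1 to 2 when a library was left out, and 2 without the chondrocyte ORC and macrophage AG1 libraries, an alternative chosen after the data were seen. The added one was PYCARD. The interaction terms had 0 called and 3 under the study's thresholds, all CASP1. The cause was not tested. None of the 23 fold changes refitted under the alternatives changed sign.

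Counts over all genes moved more. DESeq2 called 48 genes for the TLR3 agonist, 93 for the STING agonist and 1 between them in MSC, 2 in synoviocytes with TLR-MSC-CM, and in macrophages 9 (STING-MSC-CM against resting) and 31 (STING-MSC-CM against TLR-MSC-CM), where edgeR called 0. Without the TLR3 agonist library of donor 92 edgeR called 51 and 54 genes for the agonists. The fit over 27 libraries called 6 genes in macrophages between the activated media, and no filter gave 1 in synoviocytes with TLR-MSC-CM. The study's thresholds passed 126, 154 and 27 genes in MSC and 34 for CpG, 71, 60 and 75 in synoviocytes, 44, 56 and 39 in chondrocytes and 94, 85 and 93 in macrophages. Between cell types they passed 5059, 4995 and 1199 genes, where the main fit called 11174, 11149 and 2831. Chondrocytes against synoviocytes gave 1781 calls without the synoviocyte library of donor PC, 1823 without the chondrocyte library of donor AG1 and 4496 without the chondrocyte ORC and macrophage AG1 libraries.

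With the donor as a replicate block, 80 genes were called in macrophages for STING-MSC-CM against resting and 336 against TLR-MSC-CM, 2 in MSC with the STING agonist and 2 in chondrocytes with STING-MSC-CM against resting, and the block changed no call of a member. Depth limits NLRP12 and CASP1 outside macrophages and most values there of NLRC4, AIM2 and, in MSC and synoviocytes, NLRP3. AIM2 and NLRP3 reached 54 and 25 counts in MSC and NLRC4 reached 16 in chondrocytes.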
